A study of Mus musculus with 4 samples.

Results

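The genes described here are 8 genes that megakaryocytes and platelets are known for, Pf4, Ppbp, Itga2b, Gp1ba, Gp1bb, Gp5, Gp9 and Vwf, measured in mouse blood stem and progenitor cells. They were chosen by name: every non-control probe of the array that carries one of these symbols was taken, which gave 11 probes of 55681. Gp1bb had 3 probes, Vwf had 2 and each of the other 6 genes had 1. All 8 genes were well above background, by the scanner software's own call, on at least 1 array, as were 28290 genes in all. On all 4 arrays this held for 6 of the 8, and Ppbp and Gp5 were the exceptions.

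Each of 4 groups had 1 one-colour Agilent array. The groups were long-term haematopoietic stem cells (LT-HSC) from p38 cKO donors, LT-HSC from wild-type (WT) donors, multipotent progenitors (MPP) from p38 cKO donors and MPP from WT donors. Per the labels, LT-HSC were the CD34- Flt3- cells and MPP the CD34+ Flt3+ cells among LSK marrow cells, which lack lineage markers and carry Sca-1 and Kit. Donors were male C57BL/6J mice 10 weeks old. In all 4 groups the sorted cells were stained with CFSE, a dye that stays in the cell, and transplanted into congenic mice irradiated with a lethal dose of 9.5 Gy. The stained cells were recovered by a new sort of the recipients’ marrow 16 h later. What drives the deletion, which exons it removes and how many mice were pooled per array is not given in the sources used here. No group had a replicate, so there are no p-values, and a difference between arrays cannot be separated from the variation between preparations of cells.

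Megakaryocytes, the marrow cells that shed platelets, fill alpha granules with secreted proteins and cover their surface with adhesion receptors. Pf4 and Ppbp encode CXC chemokines of those granules. Vwf encodes von Willebrand factor, the adhesive protein that tethers platelets to a damaged vessel wall and that endothelial cells also make. Gp1ba, Gp1bb, Gp9 and Gp5 encode the subunits of the glycoprotein Ib-IX-V complex, the platelet receptor for von Willebrand factor. Itga2b encodes the integrin alpha IIb, which pairs with the beta 3 chain from Itgb3 to bind fibrinogen, and which also marks early haematopoietic cells. Some LT-HSC carry RNA of such genes, and stem cells marked by Vwf have been described as biased towards making platelets. GATA and ETS family factors, among them GATA1 and FLI1, are known activators of megakaryocyte genes.

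The promoters of 5 of these genes are shown because the genes differ in how they stood on the 4 arrays. Each is the 250 bases before the RefSeq gene start on GRCm38.p6, 5′ to 3′ on the strand of the gene. Pf4 and Ppbp are adjacent genes on chromosome 5, with promoters at chr5:90772185-90772434 (plus strand) and chr5:90768268-90768517 (plus strand). The promoter of Itga2b lies at chr11:102469884-102470133 (minus strand), that of Gp1ba at chr11:70638872-70639121 (plus strand) and that of Gp9 at chr6:87777820-87778069 (plus strand). Capitals mark words searched on both strands: a GATA word is GATA preceded by A or T and followed by A or G, and an ETS word is GGAA preceded by A or C and followed by A or G.
Pf4: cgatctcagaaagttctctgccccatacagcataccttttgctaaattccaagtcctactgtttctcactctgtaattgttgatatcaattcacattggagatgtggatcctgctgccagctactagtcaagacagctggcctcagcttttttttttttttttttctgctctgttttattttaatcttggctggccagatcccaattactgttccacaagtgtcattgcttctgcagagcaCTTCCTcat
Ppbp: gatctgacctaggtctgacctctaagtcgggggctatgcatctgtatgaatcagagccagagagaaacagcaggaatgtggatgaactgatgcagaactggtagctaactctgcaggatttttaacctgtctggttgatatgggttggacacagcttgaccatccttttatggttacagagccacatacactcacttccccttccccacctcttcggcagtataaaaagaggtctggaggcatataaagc
Itga2b: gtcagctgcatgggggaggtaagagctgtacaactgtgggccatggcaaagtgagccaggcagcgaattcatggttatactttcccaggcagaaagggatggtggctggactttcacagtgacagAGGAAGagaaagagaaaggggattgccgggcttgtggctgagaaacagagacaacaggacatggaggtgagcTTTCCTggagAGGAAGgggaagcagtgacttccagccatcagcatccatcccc
Gp1ba: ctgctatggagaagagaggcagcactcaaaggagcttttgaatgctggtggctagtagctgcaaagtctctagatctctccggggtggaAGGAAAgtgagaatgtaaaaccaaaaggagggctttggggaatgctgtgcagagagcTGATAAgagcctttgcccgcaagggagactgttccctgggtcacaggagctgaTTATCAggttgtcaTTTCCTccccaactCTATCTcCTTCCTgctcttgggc
Gp9: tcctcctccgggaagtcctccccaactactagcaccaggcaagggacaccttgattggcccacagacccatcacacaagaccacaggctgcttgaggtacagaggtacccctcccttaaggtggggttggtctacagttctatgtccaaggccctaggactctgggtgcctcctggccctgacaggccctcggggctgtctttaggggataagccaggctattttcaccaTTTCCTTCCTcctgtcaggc
A RefSeq promoter was matched for 7 of the 8 genes, Vwf being the other. ETS words stood in 6 of the 7, all but Ppbp, and in 57.2% of all 32851 promoters of this length. GATA words stood in 3 of the 7, Gp1ba with 3, Gp5 with 3 and Gp1bb with 1, and in 26.5% of all promoters. Both kinds stood in those same 3 genes and in 15.0% of all promoters, and no GATA word overlapped an ETS word. A match describes the letters of the window and is not evidence of binding.

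Before the genes themselves, the arrays were set against their labels. The gene for p38 alpha, Mapk14, had 2 probes. At one the processed signal was 490.5 in cKO LT-HSC, 474 in WT LT-HSC, 595 in cKO MPP and 621 in WT MPP, and at the other it was 912, 1447, 1024 and 951 in the same groups. Neither probe was low on both cKO arrays, and since the deleted exons are not known here, the probes may lie outside them. Of the markers of the sort, Cd34 had 3601 and 1169 in cKO and WT LT-HSC, against 6331 and 7734 in cKO and WT MPP. Ly6a, the gene of Sca-1, had 4287 and 4387 in cKO and WT LT-HSC, against 860 and 939 in cKO and WT MPP. Kit had 2763 and 2956 in cKO and WT LT-HSC, against 2658 and 3737 in cKO and WT MPP. Flt3 had 189 and 177 in cKO and WT LT-HSC, against 365 and 515 in cKO and WT MPP, at its brightest probe, while its 2 other probes were higher in LT-HSC, by 0.63 to 0.70 in cKO and 0.22 to 0.88 in WT cells. Of 14 stem and progenitor markers, 4 were at least 2-fold higher and 4 lower in LT-HSC than in MPP of WT mice, and 3 and 3 of cKO mice. Between the genotypes, 3 of the 14 were at least 2-fold higher and 2 lower in cKO than in WT LT-HSC. In MPP the counts were 0 and 0 of 13. The higher ones were Cd34, a marker of the sort, at 1.70, Procr at 1.31 and Cd48 at 1.01. The lower ones were Mecom at −2.70 and Ctnnal1 at −2.96. Other probes gave 1.15 for Cd34, −0.01 for Cd48 and 2.48 for Ctnnal1. Slamf1, a stem cell marker not used in the sort, was well above background in LT-HSC of both genotypes and in neither MPP array. Its LT-HSC signals were low, 19.7 in cKO and 26.2 in WT cells. Procr, another such marker, was lower in WT LT-HSC than in WT MPP, at −1.18. The processed signals are not scaled between arrays. Their 75th percentiles were 202, 214, 175 and 179 in cKO LT-HSC, WT LT-HSC, cKO MPP and WT MPP, and 62.5 to 70.5% of spots were well above background. Every log2 difference below is taken after dividing by the 75th percentile, and its ± is the scanner software's error of the 2 spots, which holds no biological variation. In such bulk RNA, fewer cells of a type and less RNA per cell cannot be told apart.

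Pf4, the granule chemokine, was the member with the widest gap between the stem cell and progenitor arrays of WT mice. Its probe (mm9, chr5:91202275-91202334) had a processed signal of 1828 in cKO LT-HSC and 2339 in WT LT-HSC, and of 878 in cKO MPP and 510.0 in WT MPP. Both LT-HSC arrays were above both MPP arrays. In WT cells LT-HSC exceeded MPP by 1.94 ± 0.20 on the log2 scale, 3.83-fold, and 3.30% of all genes lay at least as far in that direction. In cKO cells the same difference was 0.85 ± 0.20, 1.80-fold. The cKO minus WT difference was −0.27 ± 0.20 in LT-HSC and 0.81 ± 0.20 in MPP. The genotypes thus stood in opposite order in the 2 populations. The LT-HSC difference was small, and 24.99% of all genes lay at least as far in that direction, against 3.14% for the MPP difference. Pf4 is also known to be expressed at some level outside the megakaryocyte lineage, and on the MPP arrays macrophage markers moved the same way. Of the 12 macrophage markers 10 were at least 2-fold higher and none 2-fold lower in cKO MPP than in WT MPP. Their summed level, in units of the array's 75th percentile, was 122 in cKO MPP and 59.0 in WT MPP, against 37.6 in cKO LT-HSC and 42.1 in WT LT-HSC. In cKO MPP all 12 were well above background, and in WT MPP all but Cd163. Of 12 neutrophil markers 3 were at least 2-fold higher and none lower in cKO than in WT MPP, with a median of 0.72 and summed levels of 283 and 245. The part of these cell types in the Pf4 difference was not tested.

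Ppbp, the neighbour of Pf4 and the gene of the other granule chemokine, was measured on 1 array only. Its probe (mm9, chr5:91198970-91199029) had a signal of 47.5 in cKO LT-HSC. It read 3.57 in WT LT-HSC, 3.20 in cKO MPP and 3.85 in WT MPP, none of them well above background. Where only 1 array of a pair measured a probe, the fold is in most cases a bound. It is taken against the lowest signal that the other array called well above background, 12.5 to 15.4 over the 4 arrays. Where the dim spot's own signal was higher than that, the fold was taken against the dim spot. Such a fold is a plain ratio and not a bound, as for Gp5 in cKO LT-HSC and the second Vwf probe in cKO MPP. As a bound, Ppbp was at least 4.03-fold higher in cKO than in WT LT-HSC, and at least 3.23-fold higher in LT-HSC than in MPP of cKO mice. Neither chemokine gene followed the other: on the LT-HSC arrays Pf4 had a cKO minus WT difference of −0.27 while Ppbp passed the 2-fold line upwards.

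**Figure D1:**
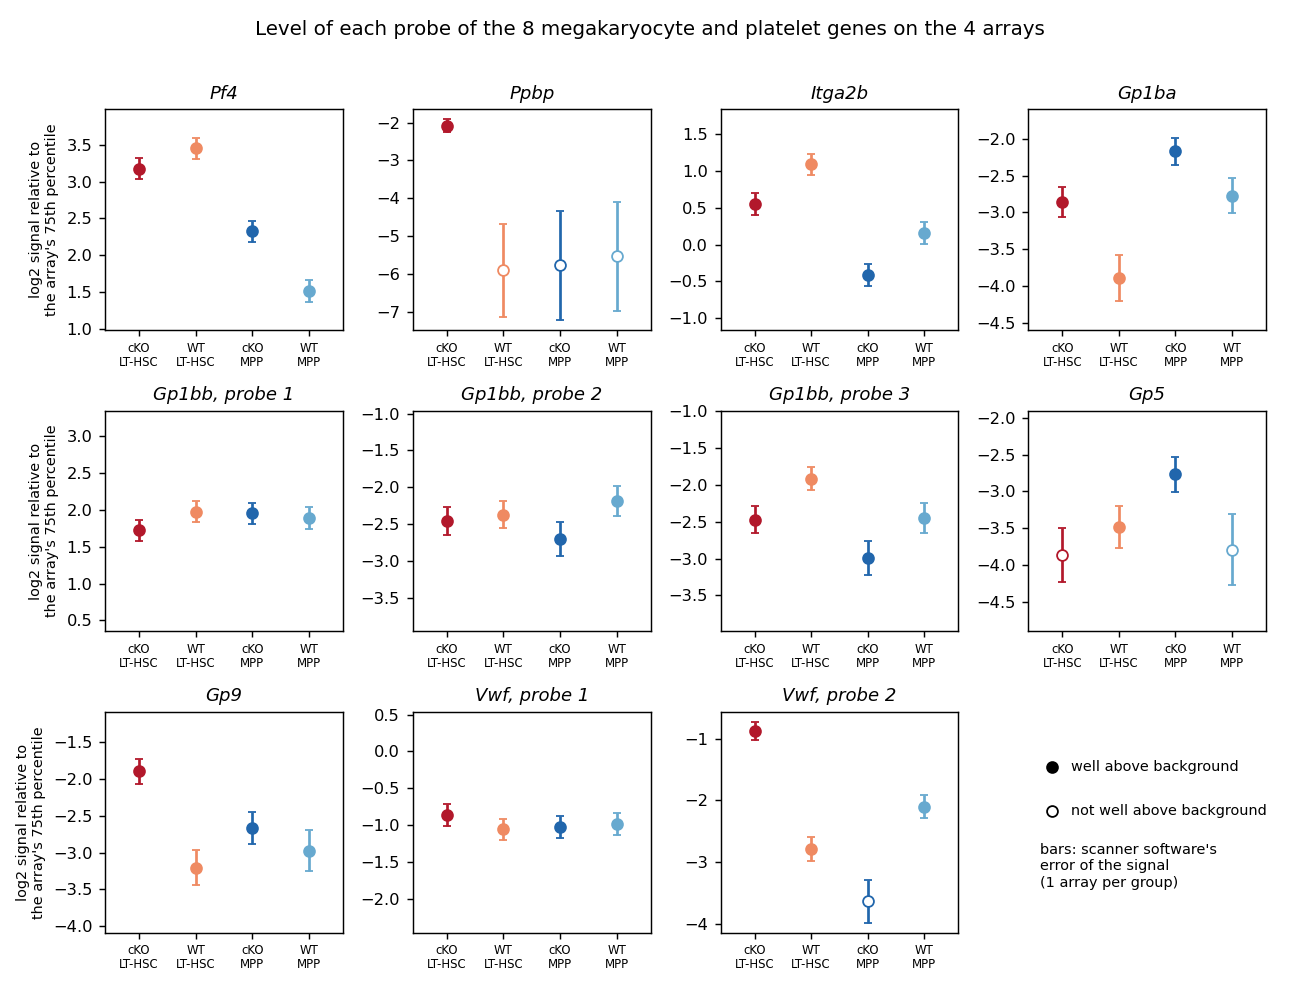
Level of each of the 11 probes on the 4 arrays, as log2 of the processed signal relative to the 75th percentile of its array, with the scanner software's error as bars and open circles where the signal was not well above background. Pf4 and Itga2b were higher on both LT-HSC arrays than on both MPP arrays, Ppbp was measured in cKO LT-HSC alone, and the 2 Vwf probes differ in shape. The vertical scales differ between panels, and levels are not to be compared between probes.

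Itga2b differed between the populations by nearly the same amount in both genotypes, and between the genotypes by nearly the same amount in both populations. Its probe spans 209 bases of mm9 (chr11:102319453-102319661), more than its own length of 60 bases, so that it crosses an intron. The signal was 296 in cKO LT-HSC and 455 in WT LT-HSC, and 132 in cKO MPP and 199 in WT MPP. The LT-HSC arrays were again above the MPP arrays, by 0.93 ± 0.21 in WT and by 0.96 ± 0.21 in cKO cells. The cKO arrays were below the WT arrays in both populations, at −0.54 ± 0.20 in LT-HSC and −0.57 ± 0.21 in MPP. None of these 4 differences reached 2-fold. The gene of its partner chain, Itgb3, had 1200.3 in cKO LT-HSC, 952 in WT LT-HSC, 607 in cKO MPP and 562 in WT MPP. Itgb3 was thus also higher in LT-HSC, by 0.78 in cKO and 0.50 in WT cells, but its cKO minus WT differences were 0.42 in LT-HSC and 0.14 in MPP, of the opposite sign to those of Itga2b. These values are from its brightest probe. Another probe of Itgb3 gave the same signs, with cKO minus WT at 0.19 in LT-HSC and 0.76 in MPP. There LT-HSC exceeded MPP by 0.79 in cKO and 1.37 in WT cells.

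The probes of the von Willebrand factor receptor subunits did not move together, though those of Gp9, Gp1ba and Gp5 had low signals. Gp9 (mm9, chr6:87729650-87729709) had a signal of 54.2 in cKO LT-HSC, against 23.2 in WT LT-HSC, and of 27.6 in cKO MPP, against 22.7 in WT MPP. The cKO LT-HSC array stood apart from the other 3, and in LT-HSC the cKO exceeded the WT by 1.31 ± 0.29, 2.47-fold. A difference that large in that direction was met or passed by 5.45% of all genes. In MPP the difference was 0.31 ± 0.35, smaller than the scanner error.

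Gp1ba, which encodes the chain that contacts von Willebrand factor, had 27.9 in cKO LT-HSC and 14.4 in WT LT-HSC, and 38.8 in cKO MPP and 26.1 in WT MPP (mm9, chr11:70455461-70455520). It was higher in cKO than in WT cells of both populations, by 1.04 ± 0.37 in LT-HSC, 2.05-fold, and by 0.60 ± 0.30 in MPP. Unlike Pf4 and Itga2b it was lower in LT-HSC than in MPP, at a difference of −1.12 ± 0.39 in WT cells, 2.18-fold, and at −0.69 ± 0.27 in cKO cells. These signals lie near the lowest that the arrays call well above background, and the 2-fold calls of Gp1ba depend on the scaling.

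Gp1bb, the chain linked to the product of Gp1ba, was nearly level at its brightest probe (mm9, chr16:18621107-18621166), with 667 in cKO LT-HSC, 841 in WT LT-HSC, 678 in cKO MPP and 663 in WT MPP. Its cKO minus WT difference there was −0.25 ± 0.20 in LT-HSC, and 0.06 ± 0.20 in the progenitors. The dimmer probes gave −0.09 and −0.56 in LT-HSC and −0.52 and −0.54 in MPP, so the MPP difference was near 0 at one probe and lower in cKO at the other two. No probe of Gp1bb reached 2-fold in any of the 4 comparisons.

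Gp5, the gene of the remaining subunit, was measured on 2 arrays only (mm9, chr16:30308347-30308406). It had 13.8 in cKO LT-HSC, not well above background, against 19.0 in WT LT-HSC, and 25.6 in cKO MPP, against 12.9 in WT MPP, not well above background. The bound is at least 1.70-fold higher in cKO than in WT MPP. Taken against the dim cKO LT-HSC spot itself, Gp5 was 1.30-fold lower in cKO than in WT LT-HSC. By a ratio of the same kind it was 2.14-fold lower in LT-HSC than in MPP of cKO mice. On the LT-HSC arrays the Gp5 signals, 13.8 ± 3.5 in cKO and 19.0 ± 3.8 in WT, overlapped within the scanner error. Gp5 therefore gives no clear order of the genotypes there to set beside that of Gp9.

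The 2 probes of Vwf gave different results. The brighter over the 4 arrays, designed to an Ensembl transcript (mm9, chr6:125542106-125542165), had 111 in cKO LT-HSC, 102 in WT LT-HSC, 85.7 in cKO MPP and 90.1 in WT MPP. It was flat, with cKO minus WT differences of 0.20 ± 0.21 in LT-HSC and −0.04 ± 0.21 in progenitors. The other, designed to the RefSeq mRNA (mm9, chr6:125636551-125636610), had 110.0 in cKO LT-HSC and 31.0 in WT LT-HSC, and 14.1 in cKO MPP, not well above background, and 41.6 in WT MPP. There Vwf was 3.76-fold higher in cKO than in WT LT-HSC, at 1.91 ± 0.25. Against the dim spot's own signal it was 2.90-fold lower in cKO than in WT MPP. On the same probe the LT-HSC minus MPP difference was −0.68 ± 0.27 in WT cells. In cKO cells LT-HSC were 6.78-fold higher, again against the dim spot's own signal. Which transcripts each probe detects was not determined here, and the Vwf value used in the counts below is that of the flat probe.

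Endothelial cells also express Vwf, so their markers were set beside it. The summed level of the 12 endothelial markers was 11.5 in cKO LT-HSC, 15.7 in WT LT-HSC, 12.4 in cKO MPP and 13.1 in WT MPP. Of these markers 1 was at least 2-fold higher and 2 were 2-fold lower in cKO than in WT LT-HSC. Cdh5, the cadherin of endothelial junctions, had 159 in cKO LT-HSC and 150 in WT LT-HSC and was not well above background on either MPP array. Emcn had 16.9 in cKO LT-HSC, against 144 in WT LT-HSC. Tie1 had 116 in cKO LT-HSC, against 610 in WT LT-HSC. Pecam1, the 1 marker at least 2-fold higher, had 612 in cKO LT-HSC, against 124 in WT LT-HSC. That difference of 2.39 ± 0.21 ran in the same direction as the RefSeq probe of Vwf, whereas the summed level was lower in cKO LT-HSC. The brightest marker in that sum, Kdr, had 1002 in cKO LT-HSC, against 1866 in WT LT-HSC. Over the 11 markers measured on both LT-HSC arrays the median cKO minus WT difference was 0.00, with 6 above 0 and 5 below. The part of endothelial RNA in the Vwf result was not tested.

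**Figure D2:**
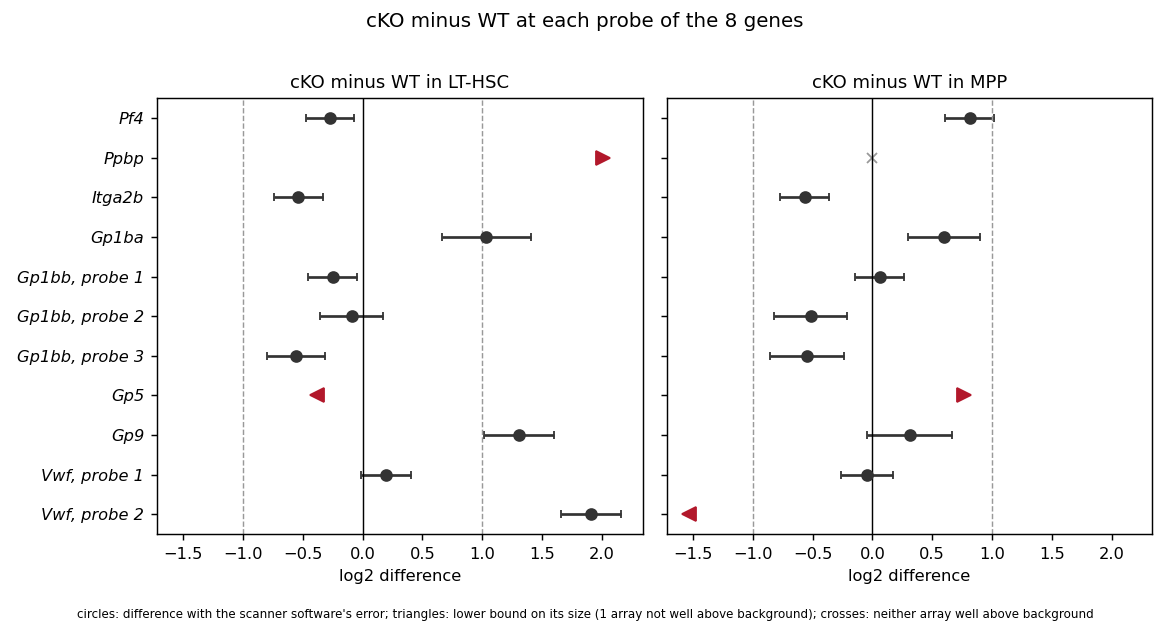
Log2 difference of cKO minus WT at each of the 11 probes, in LT-HSC on the left and in MPP on the right. Bars are the scanner software's error, triangles are bounds or ratios to a dim spot, and a cross stands where neither array was well above background. In LT-HSC, Ppbp, Gp1ba, Gp9 and the second Vwf probe lie past the dashed 2-fold line on the right and no probe lies past the one on the left. In MPP the second Vwf probe alone lies past a line, on the left.

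Counted by gene, 3 of the 8 were at least 2-fold higher and none at least 2-fold lower in cKO than in WT LT-HSC. The 3 were Ppbp, Gp9 and Gp1ba. Of all 27623 genes tested there, 10.7% were at least 2-fold higher and 8.26% at least 2-fold lower. The median over the 6 members measured on both arrays was −0.03, against 0.10 over all genes, with 3 of the 6 above 0 and without Ppbp. With the mean of all probes of a gene that median was 0.38. Normexp background correction with quantile normalization left 0 of the 3 at 2-fold, with Ppbp at 0.46, Gp9 at 0.38 and Gp1ba at 0.22. In MPP none of the 7 members tested reached 2-fold in either direction, where 2.41% of all genes were higher and 2.63% lower, and their median was 0.19, against −0.06 over all genes. With 8 genes and 1 array per group these counts describe the arrays and are not a test.

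Between the populations, 1 of 7 members tested in WT cells was at least 2-fold higher in LT-HSC than in MPP (Pf4) and 1 at least 2-fold lower (Gp1ba), where 10.2% of all genes were higher and 18.1% lower. In cKO cells 1 of 8 was higher (Ppbp, as a bound) and 1 lower (Gp5, as a ratio to a dim spot). There 7.92% of all genes were higher and 6.69% lower. The members' medians were 0.00 in WT and 0.47 in cKO cells, against −0.20 and −0.09 over all genes. Restricting the percentile to probes measured on every array moved the median of all genes in WT cells to −0.05 and in cKO cells to 0.02. With that percentile 3264 genes were 2-fold higher and 3799 lower in WT cells, in place of 2725 and 4831, and 2521 higher and 1368 lower in cKO cells, in place of 2141 and 1808. Between the populations the directions of the members held under the scalings tried, except that of the flat Vwf probe in WT cells, which was −0.08 and turned to 0.07 with that percentile. The 4 comparisons use each array 2 times, so they are not independent of one another.

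**Figure D3:**
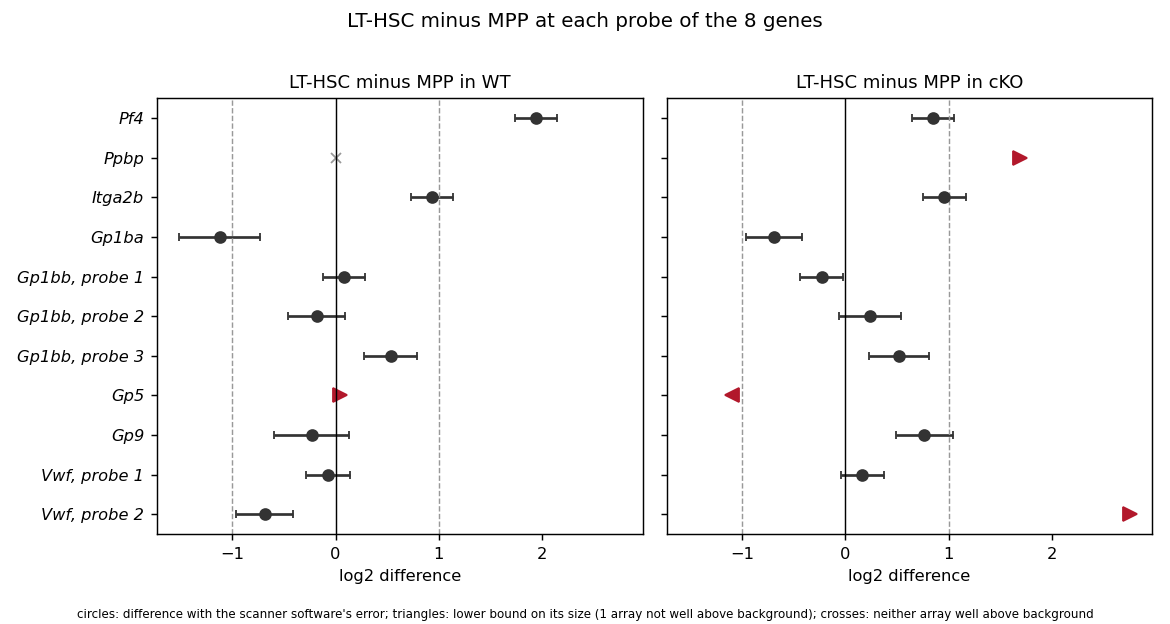
Log2 difference of LT-HSC minus MPP at each of the 11 probes, in WT cells on the left and in cKO cells on the right, drawn as in the plot of the genotype differences. Pf4 and Itga2b lie right of 0 and Gp1ba left of 0 in both genotypes, whereas Gp9 and the second Vwf probe lie left of 0 in WT and right of 0 in cKO cells.

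The 8 genes did not share one pattern. After centring each gene on its own mean over the arrays, the median of the 6 members measured throughout was 0.16 in cKO LT-HSC, 0.01 in WT LT-HSC, −0.01 in cKO MPP and −0.09 in WT MPP, close to flat. The distance of single members from this median pattern, as root mean square over the 4 arrays, was 0.70 for Pf4, 0.63 for Gp1ba and 0.53 for Itga2b. So flat a pattern picks out no partner genes: 6484 of 21513 genes lay within 0.25 of it. Of the 5 nearest features 4 carry no gene symbol and the other is Synj2, a phosphoinositide phosphatase gene.

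The wider megakaryocyte programme was followed with 63 other genes, and 62 of them passed the background call at least once (all but Adra2a). In cKO against WT LT-HSC, 4 of the 62 were at least 2-fold higher and 7 at least 2-fold lower, with a median of 0.23. In MPP the counts were 2 and 2 of 59, with a median of −0.06. Between LT-HSC and MPP they were 10 higher and 10 lower of 62 in WT cells and 6 higher and 2 lower of 61 in cKO cells, with medians of −0.08 and 0.03. These shares stand beside the percentages of all genes given above for the same comparisons.

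Among 14 transcription factor genes of the lineage, 1 was at least 2-fold lower and none 2-fold higher in cKO than in WT LT-HSC. That gene was Runx1, at −1.51 ± 0.21 at its brightest probe, while its other probe gave 0.02. None of the 14 reached 2-fold between the genotypes in MPP. Gata1, which drives megakaryocyte and erythroid genes, had 585 in cKO LT-HSC and 705 in WT LT-HSC, against 175 in cKO MPP and 139 in WT MPP. Like Pf4 it was higher in LT-HSC than in MPP, by 2.08 in WT and 1.53 in cKO cells. Zfpm1, the gene of the GATA1 cofactor FOG1, was higher in WT LT-HSC than in WT MPP by 1.31, and Nfe2, needed for platelet release, was lower, at −1.16. Fli1 and Zfpm1 were lower in cKO than in WT LT-HSC, at −0.70 and −0.73. The values of Gata2 and Gfi1b there were 0.25 and 0.57.

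Erythroid cells share GATA1 with megakaryocytes, and erythroid markers differed between the arrays. Of 11 erythroid markers above background, none was at least 2-fold higher and 4 were 2-fold lower in cKO than in WT LT-HSC. Their summed level was 60.2 in cKO LT-HSC, 92.5 in WT LT-HSC, 50.5 in cKO MPP and 44.2 in WT MPP. Among the globin genes, Hbb-b1 was not above background on any array, whereas Hba-a1 had 4417 in cKO LT-HSC and 11147 in WT LT-HSC, against 2992 in cKO MPP and 2692 in WT MPP. B-cell markers also differed: 9 of 10 were at least 2-fold higher in WT LT-HSC than in WT MPP, and 7 of 10 were at least 2-fold lower in cKO than in WT LT-HSC. Their summed level was 46.3 in cKO LT-HSC and 83.7 in WT LT-HSC, against 20.2 in cKO MPP and 16.6 in WT MPP. Most of the MPP sums came from Cd22, with 3173 in cKO MPP and 2522 in WT MPP. Cd22 was higher in LT-HSC by only 0.52 in WT and 0.19 in cKO cells. All 10 B-cell markers were well above background on both LT-HSC arrays, against 6 in cKO MPP and 7 in WT MPP. Of 10 T and NK cell markers 6 were at least 2-fold higher and none lower in LT-HSC than in MPP of either genotype, with summed levels of 49.3 in cKO LT-HSC and 49.9 in WT LT-HSC, against 37.4 in both MPP arrays. Most of the MPP sums came from Nkg7, with 5054 in cKO MPP and 5342 in WT MPP. Nkg7 was lower in LT-HSC, at −0.63 in WT and −0.25 in cKO cells. All 10 of these markers were well above background on both LT-HSC arrays, against 5 on each MPP array. The part of these cell types in the results above was not tested.

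Of the receptor genes, Gp6, the collagen receptor gene, differed between the genotypes by 0.36 and 0.32, and Selp, the gene of P-selectin, by 0.29 and 0.06, in LT-HSC and MPP. Itga2, the integrin chain of another collagen receptor, was lower, at −3.05 ± 0.31 in cKO LT-HSC, with a signal of 15.8 against 138 in WT LT-HSC. P2rx1, an ATP-gated channel of platelets, was higher by 1.68 ± 0.22 in cKO LT-HSC and lower, at −0.58 ± 0.21 in cKO MPP. The thromboxane receptor gene Tbxa2r differed by 0.95 ± 0.21 in LT-HSC. In MPP the scavenger receptor gene Cd36 was higher in cKO by 1.51 ± 0.23, Clec1b, the podoplanin receptor gene, by 0.73 ± 0.21 at its brightest probe, and the tetraspanin gene Cd151 lower, at −0.98 ± 0.21. For Clec1b another probe gave −1.07, and the mean of its probes −0.07. For Cd151 another probe gave −0.37. Macrophages too express Cd36, and their markers were higher on the same array, as given above. The part of macrophage RNA in the Cd36 difference was not tested.

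Among granule and cytoskeleton genes the extremes ran in both directions on the LT-HSC arrays. Tubb1, the beta-tubulin of platelets, had 31.1 in cKO LT-HSC, against 253 in WT LT-HSC, and 16.2 in cKO MPP, against 23.9 in WT MPP. It was the most LT-HSC-biased in WT cells of the list genes measured on both arrays, at 3.14, and it was lower, at −2.94 in cKO than in WT LT-HSC. Myl9, a myosin light chain gene, was lower, at −2.09 ± 0.25 and Sparc at −1.86 ± 0.25 in the same comparison. The Sparc value is that of its brightest probe, and another probe gave −0.33. F13a1, which encodes a clotting factor chain, was higher by 1.38 ± 0.21. Thbs1, the gene of thrombospondin of the alpha granule, had 101 in cKO LT-HSC and 45.8 in WT LT-HSC, and was higher by 1.23. In MPP Thbs1 had 40.2 in cKO cells and 10.3, not well above background, in WT cells. Clu, which encodes clusterin, had 22.3 in cKO MPP, against 45.5 in WT MPP, just past the 2-fold line, and Ptgs1, the platelet cyclooxygenase gene, had a difference of 0.64 ± 0.30.

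Between the populations, F2rl2, a thrombin receptor gene, was higher in LT-HSC than in MPP by 2.35 ± 0.21 in WT and 1.31 ± 0.21 in cKO cells, and Mmrn1, the gene of multimerin, by 1.61 ± 0.23 and 1.16 ± 0.24. Sparc was higher by 1.57 ± 0.26 in WT LT-HSC and Cavin2 by 1.43 ± 0.21 in cKO LT-HSC. The lowest in WT LT-HSC were Cd151 at −1.87, P2rx1 at −1.85 and Etv6, an ETS family gene, at −1.38. Another probe of Cd151 gave −1.51, and another of Etv6 only −0.34. In cKO LT-HSC the lowest were Tgfb1 at −1.45, the thrombin receptor gene F2rl3 at −1.32 and Cd36 at −0.99.

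**Figure D4:**
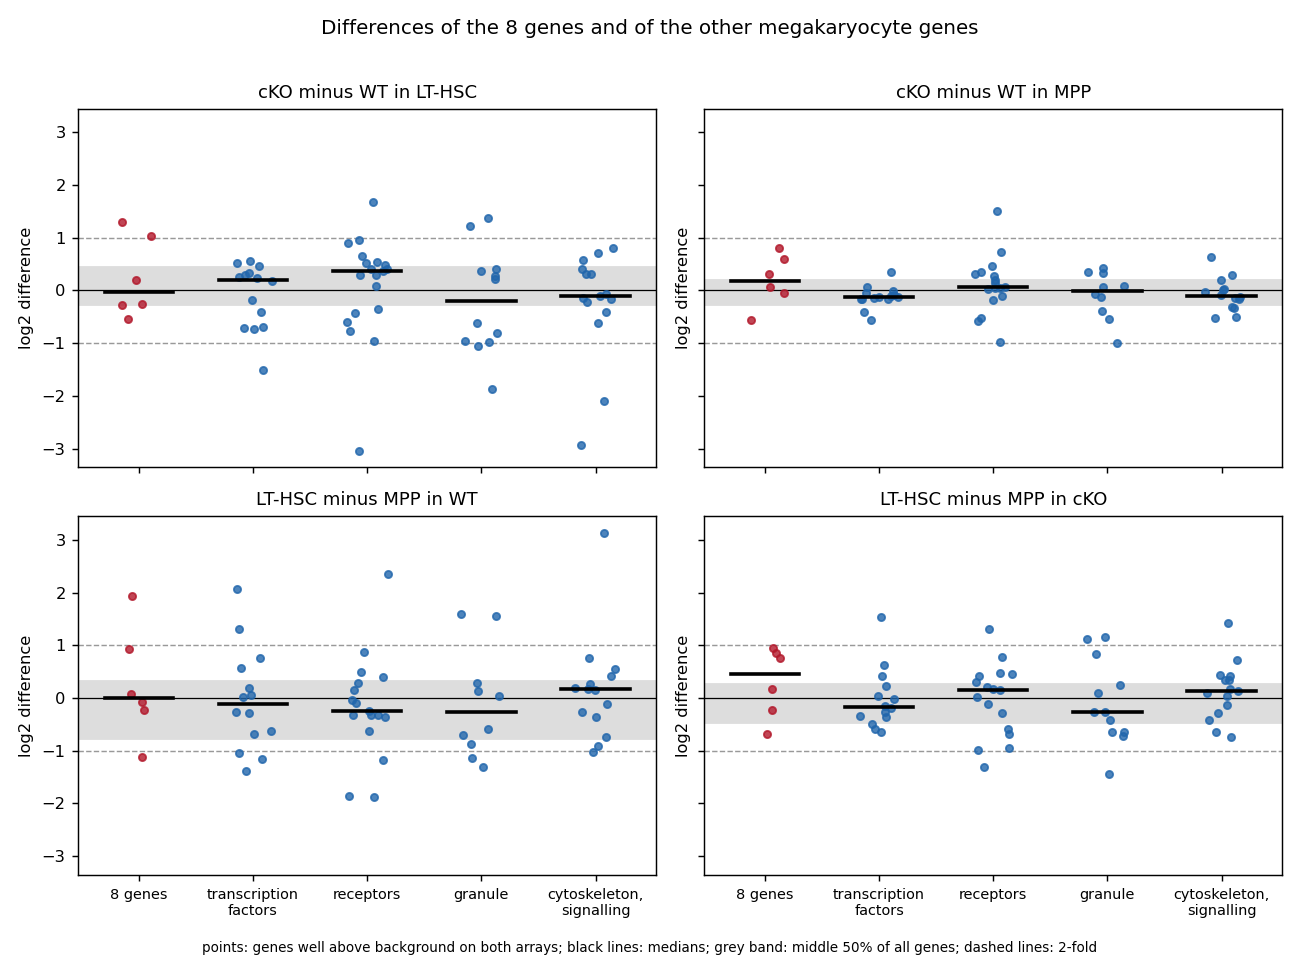
Log2 differences in the 4 comparisons for the 8 genes (red) and for the other megakaryocyte genes in 4 classes (blue), for genes well above background on both arrays, with class medians as black lines and the middle 50% of all genes as a grey band. Every class median lies within the grey band of its panel except that of the 8 genes in cKO cells, at 0.47, while single genes such as Tubb1 at −2.94 lie far outside it.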

How the data were processed

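Each of 4 samples was hybridised to 1 one-colour Agilent array (design 028005, mm9 probe coordinates). The spot intensities are as deposited. Their headers name version 10.7.3.1 of Agilent Feature Extraction, whereas version 9.5.3 stands in the submitters' processing notes. The deposited processed signal has its background subtracted and no scaling between arrays, per the file headers. The well-above-background flag is a 0 or 1 score of that software, per the file headers. The authors' series table holds ratios of each probe to its own level over the arrays; its direction and scale were settled against the scanner values, and it served as an alternative.

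Control and outlier spots were left out, spots of a probe averaged, and log2 of the processed signal reduced by each array's 75th percentile. A gene took its brightest probe above background on at least 1 array. Gene names were updated through RefSeq by accession for 26762 probes and by symbol for 3819 and 639 more, and 24461 kept the file's name. Genes at 2-fold were counted, with no test. All arrays lie on 1 slide and in 1 scan. No spot was saturated, and probes printed repeatedly had a median SD of 0.09 to 0.10 (log2) within an array; the number of arrays limits the precision. The rule for differences and bounds was tested on simulated data, and the choice of probes and the counts by gene were not. Normexp (offset 50) and quantile normalization used limma 3.58.1 in R 4.3.3.

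The members and lists were chosen with earlier results of these data known. Named were the 8 members at every probe, 12 further megakaryocyte genes (1 of them not reported here), and the 3 highest and 3 lowest list genes of each comparison.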

Additional observations from a re-analysis of the deposited data

Results flagged for a closer look

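Pf4 differed between genotypes in opposite directions in the 2 populations, beyond the scanner software's error in each: −0.27 ± 0.20 (log2) for cKO minus WT in LT-HSC and 0.81 ± 0.20 in MPP. In LT-HSC the size of the difference was 1.34 times its error, and 24.99% of all genes lay at least as far in that direction. The LT-HSC side is thus not an unusual value among all genes. In MPP the difference was 3.98 times its error, and 3.14% of all genes lay at least as far. The gap between the 2 differences, LT-HSC minus MPP, was −1.09 ± 0.29. With 1 array per group this difference was not tested. It was picked out because each population moved a different way. No other member measured on all 4 arrays did so beyond the error in each population at the probe used for its gene. Gp5 also stood in opposite orders, but with a dim array in each population, and its LT-HSC signals overlapped within the scanner error. The second Vwf probe did so too, with a dim array in MPP.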

How the results depend on the processing

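The values were recomputed under other scalings, backgrounds, probe rules and filters, and counts also at 1.5-fold. No member that reached 2-fold changed direction, and of 92 recomputed medians and counts 71 stayed close to those reported. In cKO against WT LT-HSC, normexp with quantile normalization left 0 members higher in place of 3 (its offset of 50 exceeds most of these signals), and the mean of all probes gave a median of 0.38. In cKO against WT MPP, 1 member was higher with no filter on dim probes and 3 at 1.5-fold. Between LT-HSC and MPP of WT mice, the 75th percentile over probes measured on all arrays gave 2 higher and 0 lower, quantile and normexp each 0 lower, and 1.5-fold 2 higher. In cKO mice, the same percentile gave 2 higher and 0 lower, quantile 2 higher, normexp a median of 0.16 with 0 higher and 0 lower, the mean of probes a median of 0.81 with 2 higher, the filter on all 4 arrays 0 and 0, and 1.5-fold 4 higher and 2 lower.

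Pf4 stayed past 2-fold between LT-HSC and MPP of WT mice under 7 of 7 alternatives, at 1.94 to 2.20. Between genotypes in LT-HSC, Gp9 stayed past it under 6 of 7 (0.38 to 1.34), Gp1ba under 5 of 7 (0.22 to 1.06) and Ppbp under 5 of 6 (0.46 to 3.82). Averaging its probes put Vwf at 1.05 there. Gp1ba between populations in WT cells stayed past it under 4 of 7.

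Counts of all genes, higher and lower, moved by over 1.5 times as follows. In cKO against WT LT-HSC, 2945 and 2281 became 907 and 1095 under normexp and 5821 and 4193 at 1.5-fold. In MPP, 609 and 666 became 97 and 55 under normexp, 344 and 373 with the filter on all 4 arrays, 1692 and 2037 with no filter, and 2006 and 2399 at 1.5-fold. Between populations in WT cells, 2725 and 4831 became 1738 and 1752 under normexp and 4610 and 8417 at 1.5-fold. In cKO cells, 2141 and 1808 became 952 and 443 under normexp, 1339 and 1382 with the filter on all 4 arrays, 3570 and 2790 with no filter, and 4147 and 5187 at 1.5-fold. For the 62 other megakaryocyte genes, recomputed as an addition after seeing the data, normexp gave 0 higher and 4 lower in cKO against WT LT-HSC (in place of 4 and 7), 0 and 0 in MPP (2 and 2), 6 and 3 between populations in WT (10 and 10) and 3 and 1 in cKO cells (6 and 2). The filter on all 4 arrays gave 2 and 4 in LT-HSC and 1 and 1 in MPP between genotypes. At 1.5-fold the counts were 9 and 18 in LT-HSC, 4 higher in MPP, 17 lower between populations in WT and 11 and 13 in cKO cells. Lower counts were also 1 in MPP with the other percentile or the series table and 4 with no filter, and under quantile normalization 6 in WT and 4 in cKO cells between populations. Of those named, none that reached 2-fold changed direction. Low signals, 14.4 to 54.2 where well above background, limit Ppbp, Gp1ba, Gp5 and Gp9. No paired analysis was possible because each group has 1 array.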

Other observations

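The genes next to the 8 members on the chromosome, from the protein-coding gene order of the RefSeq table, were examined after the members' values were seen. Of 14 such neighbours 10 were above background on at least 1 array. Between the genotypes 0 of them reached 2-fold in either direction, in LT-HSC or in MPP. Between LT-HSC and MPP of WT mice 1 was lower and 0 were higher, and in cKO mice 0 reached 2-fold. The 1 was Septin5, next to Gp1bb, at −1.20 ± 0.22. Cxcl5, the chemokine gene on the other side of Ppbp, had a cKO minus WT difference of 0.48 ± 0.32 in LT-HSC and was not well above background on either MPP array. Cd9, the tetraspanin gene next to Vwf, had cKO minus WT differences of 0.52 ± 0.20 in LT-HSC and of 0.03 ± 0.20 in MPP.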
